A study of Mus musculus with 6 samples.

Results

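The inhibitors of cyclin-dependent kinases (CDKs) and the D-type cyclins were compared between the cochlear and the vestibular sensory epithelium of the mouse, on 6 Affymetrix arrays, 3 of each tissue. The mice were wild type, of the C3H strain and at postnatal day 2, and received no treatment that the labels name. The vestibular samples joined saccule, utricle and 2 of the cristae, the lateral and the anterior. Every sample was a pool from 10 to 12 inner ears that also held the mesenchyme beneath the epithelium and attached neurons, so several cell types contributed to each array. The gene set was Cdkn1a, Cdkn1b, Cdkn1c, Cdkn2a, Cdkn2b, Cdkn2c, Cdkn2d, Ccnd1, Ccnd2 and Ccnd3. These are 10 of the 18193 genes named on the array. All probe sets annotated to exactly 1 of them were taken, which gave 22 of 45037, and none named a member among several genes.

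CDK inhibitors hold a cell in G1 or bring it out of the cycle. The Cip/Kip members Cdkn1a (p21), Cdkn1b (p27) and Cdkn1c (p57) bind several cyclin-CDK complexes, and the Ink4 members Cdkn2a, Cdkn2b, Cdkn2c and Cdkn2d bind only the kinases CDK4 and CDK6, the partners of the D cyclins. In the inner ear p27 is known for the exit of sensory progenitors from the cycle and for the resting state of supporting cells, while Cdkn2d (p19Ink4d) and Cdkn1a are known for keeping hair cells out of it.

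The labelled tissues were checked against marker genes. All 8 tested markers of cochlear epithelium were higher in the cochlea, with a median log2 difference of -2.68, and 6 of 8 of vestibular epithelium were higher in the vestibule, with a median of 1.37. The other cell types were not equally represented. Hair cell markers were higher in the vestibule for 6 of 11 genes (1 higher in the cochlea, median 1.00), macrophage markers for 12 of 13 (median 1.57) and endothelial markers for 7 of 11 (1 higher in the cochlea, median 1.2), while neuronal markers were higher in the cochlea for 9 of 12 (2 higher in the vestibule, median -1.30). Supporting cell markers had a median of -0.10, with 4 of 12 called towards the vestibule and 1 towards the cochlea, and mesenchymal markers a median of 0.47, with 7 of 13 and 2. Schwann cell markers had a median of 0.47 (3 of 9 higher in the vestibule, 1 in the cochlea). Of 8 red blood cell markers only 2 were tested, and both were higher in the vestibule (median 0.65). The markers Itgam of macrophages, Pecam1 of endothelium, and Hba-a1 and Epb42 of red blood cells were below the level tested. The median log2 level lay between 5.6 and 5.7 on each array. Quantile normalization makes these medians nearly equal, so they cannot show whether an array stood apart.

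Values are log2 expression levels, differences are vestibule minus cochlea, and a positive difference stands for a transcript higher in the vestibule. A probe set was tested where its mean level over the 6 arrays was at least 4.7, and it was called at a Benjamini-Hochberg adjusted p under 0.1 in limma and a fold of at least 1.3. Levels of different probe sets cannot be set against each other, because each probe set has its own response.

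The inhibitors did not move together. Cdkn2d, Cdkn2b and Cdkn1a were higher in the vestibule by about a doubling or a little less, Cdkn1b and Cdkn1c were higher in the cochlea by somewhat less than a doubling, and Cdkn2c was not called. For Cdkn1a and Cdkn1b this rests on 1 of 2 probe sets each, and the mean of both differed by 0.50 and -0.55. Of the D cyclins, Ccnd2 was higher in the vestibule by a small margin, and Ccnd1 and Ccnd3 were not called at any probe set. Of the 22 probe sets 19 were tested, from 9 genes, and 6 of the 19 (31.6%) were called higher in the vestibule, where 12.0% of all tested probe sets were. The cochlea was higher for 2 of 19 (10.5%), against 7.38% of all. By gene, 4 of 9 had a probe set called higher in the vestibule, against 17.4% of all genes tested, and 2 of 9 had one called higher in the cochlea, against 9.64%. All 3 vestibular arrays lay above all 3 cochlear arrays for 7 of the 19, against 16.0% of all tested probe sets, and the reverse held for 3, against 11.5%. The probe sets of 1 gene read the same transcripts and are not independent, and Ccnd2 alone gave 3 of the 6 vestibular calls. In these pooled tissues, fewer cells of a type and less RNA per cell cannot be told apart.

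**Figure D1:**
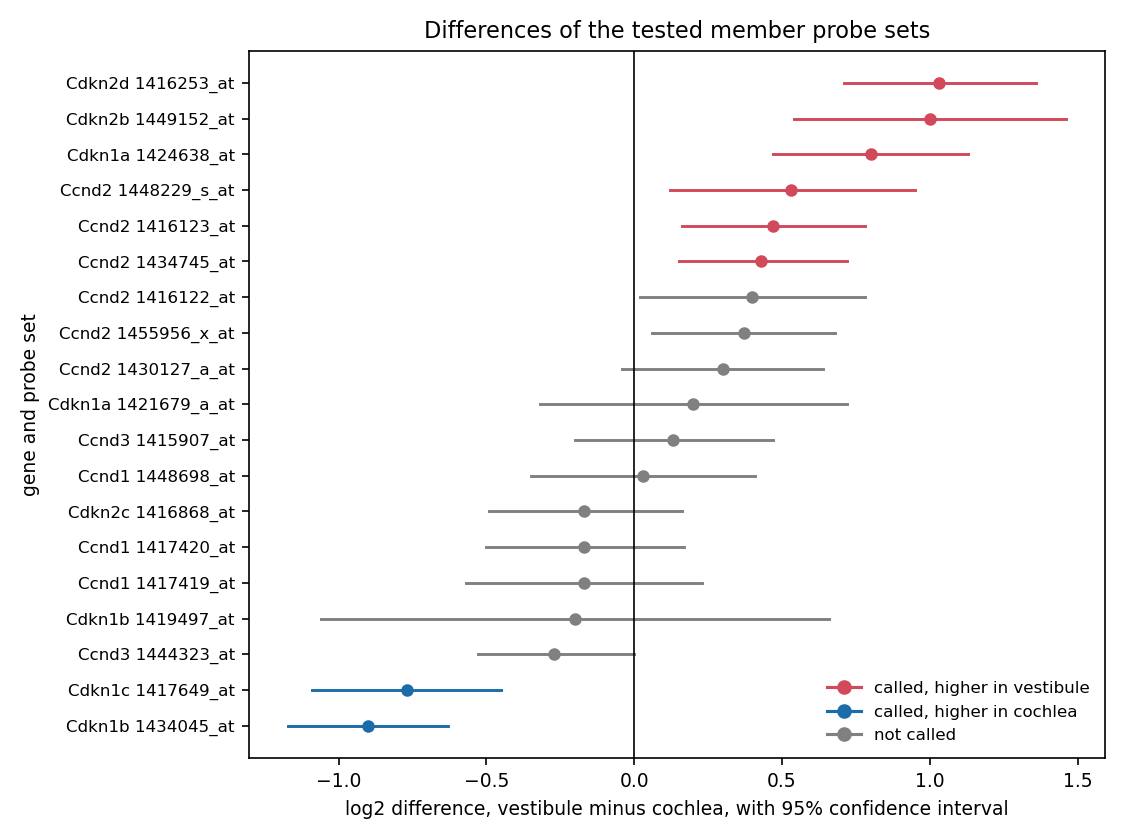
Log2 difference (vestibule minus cochlea, x axis) of each of the 19 tested probe sets, with its 95% confidence interval from limma on 3 arrays per tissue, coloured by call. The probe sets run from Cdkn1b 1434045_at at -0.90 to Cdkn2d 1416253_at at 1.03, and 11 of the 19 were not called.

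Cdkn2d, the Ink4 inhibitor p19Ink4d, had the largest difference of the set. Its probe set 1416253_at read 7.9, 8.3 and 8.2 in cochlea replicates 1 to 3 and 9.0, 9.2 and 9.3 in vestibule replicates 1 to 3. The lowest vestibular array thus lay above the highest cochlear one, and the arrays of each tissue stayed close to each other. The cochlear mean was 8.13 ± 0.21 (SD, n = 3) and the vestibular mean 9.17 ± 0.15 (SD, n = 3). The difference was 1.03 (standard error 0.14, limma adjusted p = 0.00129), a fold of 2.05. Of all tested probe sets 5.7% had a larger difference in either direction. It was called without any single array, at 0.92 to 1.12. Hair cell markers lay higher in the vestibule on average, with list means of 7.75 to 7.93 over the cochlear arrays and 8.57 to 8.67 over the vestibular arrays. Of the brightest, Otof stood at 1.53, Myo6 at 0.47 (not called, limma adjusted p = 0.110) and Pvalb, the 1 marker of this list called higher in the cochlea, at -2.10. The other 5 called markers, from Pou4f3 at 1.00 to Gfi1 at 3.10, were higher in the vestibule. Macrophage markers (median 1.57) and endothelial markers (median 1.20, 1 called higher in the cochlea) differed towards the vestibule by more than hair cell markers (median 1.00). The part of any of these cell types in the difference of Cdkn2d was not tested.

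Cdkn2b, the Ink4 inhibitor p15, is induced by transforming growth factor β in many cells. Its single probe set 1449152_at read 6.2, 6.1 and 6.6 in the cochlea and 7.2, 7.7 and 7.0 in the vestibule, in the order of the replicates. The groups did not overlap, although the vestibular arrays spread over 0.36 (SD, n = 3), more than those of Cdkn2d. The difference was 1.00 (standard error 0.20, limma adjusted p = 0.00989), a fold of 2.00, and it ranged from 0.80 to 1.15 with each array left out, with the call kept. In a fit with the replicate number as a block it stayed at 1.00 but was not called (limma adjusted p = 0.113). Macrophage markers differed in the same direction by more, with a list mean of 6.69 to 6.95 over the cochlear and 8.22 to 8.56 over the vestibular arrays, led in level by Csf1r (1.80), Mrc1 (2.33) and C1qc (1.87). Endothelial list means ran from 6.53 to 6.69 and from 7.48 to 7.69. The brightest endothelial markers went both ways, with Emcn at -1.57, Kdr at 2.97 and Cldn5 at 1.73. The part of macrophages or endothelium in the difference of Cdkn2b was not tested.

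Cdkn2c (p18) and Cdkn2a, the other Ink4 genes, gave no call. Cdkn2c 1416868_at read 7.4, 7.3 and 7.3 in the cochlea and 6.9, 7.4 and 7.2 in the vestibule, so that the vestibular arrays covered the cochlear ones. Its difference was -0.17 with a 95% interval of -0.49 to 0.16 (limma adjusted p = 0.498), which leaves room for a small difference either way and lies below the intervals of Cdkn2d (0.71 to 1.36) and Cdkn2b (0.54 to 1.46). Cdkn2a, whose locus encodes both p16Ink4a and p19Arf and which neighbours Cdkn2b in the genome, was read by 1450140_a_at at 4.2, 4.5 and 3.9 in the cochlea and 4.3, 4.2 and 4.3 in the vestibule. All 6 values lay below the minimum of 4.7, so this probe set was not tested. With no filter on level its difference was 0.07 (interval -0.28 to 0.42).

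Cdkn1a, the p53 target p21, was read by 2 probe sets. 1424638_at read 10.0, 9.7 and 9.8 in the cochlea and 10.8, 10.7 and 10.4 in the vestibule. Every vestibular array lay above every cochlear one, with a difference of 0.80 with a standard error of 0.14 (limma adjusted p = 0.00521), a fold of 1.74, and 0.72 to 0.92 with each array left out. The other probe set, 1421679_a_at, read 8.4, 7.6 and 7.6 in the cochlea and 8.2, 8.2 and 7.8 in the vestibule. Here cochlea replicate 1 lay above all vestibular arrays, and the difference was 0.20 (interval -0.32 to 0.72, limma adjusted p = 0.619). Without that array it was 0.47, still not called. The mean of both probe sets differed by 0.50 (standard error 0.17, limma adjusted p = 0.0624) in a fit by gene.

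Cdkn1b, the p27 gene, had the largest difference towards the cochlea. Its probe set 1434045_at read 8.8, 8.9 and 8.9 in the cochlea and 8.0, 8.1 and 7.8 in the vestibule. The cochlear arrays were almost equal and stood clear of the vestibular ones, with a difference of -0.90 with a standard error of 0.12 (limma adjusted p = 0.00102), a fold of 1.87. With each array left out it stayed between -0.97 and -0.82 and was called each time. The second probe set, 1419497_at, was dimmer and uneven, at 6.1, 6.7 and 5.0 in the cochlea and 5.7, 6.1 and 5.4 in the vestibule. These groups overlapped fully, the difference was -0.20 (interval -1.06 to 0.66, limma adjusted p = 0.774), and without cochlea replicate 2 it was 0.18. In a fit of the mean of both, Cdkn1b differed by -0.55 (standard error 0.21, limma adjusted p = 0.0954).

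Cdkn1c, the imprinted gene of p57, followed the direction of Cdkn1b. Its probe set 1417649_at read 12.2, 12.2 and 11.8 in the cochlea and 11.2, 11.4 and 11.3 in the vestibule. The groups did not overlap, with cochlea replicate 3 the nearest to the vestibular arrays, and the difference was -0.77 (standard error 0.14, limma adjusted p = 0.00610), a fold of 1.70. The range with each array left out was -0.90 to -0.70, again called each time. Beside both cochlear inhibitors, the neuronal list mean ran from 8.51 to 8.82 on the cochlear and from 7.39 to 7.54 on the vestibular arrays. The brightest neuronal markers were Isl1 at -1.37, Nefl at -0.53 and Ntrk2, higher in the vestibule, at 0.87. The supporting cell list mean ran from 9.16 to 9.54 and from 9.25 to 9.32 on the same arrays. Of the brightest supporting cell markers, S100a1 was higher in the vestibule at 1.17 (limma adjusted p = 0.00311), while Gjb2 at -0.30 (limma adjusted p = 0.229) and Sox2 at -0.17 (limma adjusted p = 0.403) were not called. The 1 marker of the list called higher in the cochlea was Fgfr3, at -3.57, named after its value was seen. The cochlear epithelium list differed by more than the neuronal one, with means of 10.94 to 11.25 on the cochlear and 8.22 to 8.29 on the vestibular arrays. The part of any of these cell types in the differences of Cdkn1b and Cdkn1c was not tested.

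**Figure D2:**
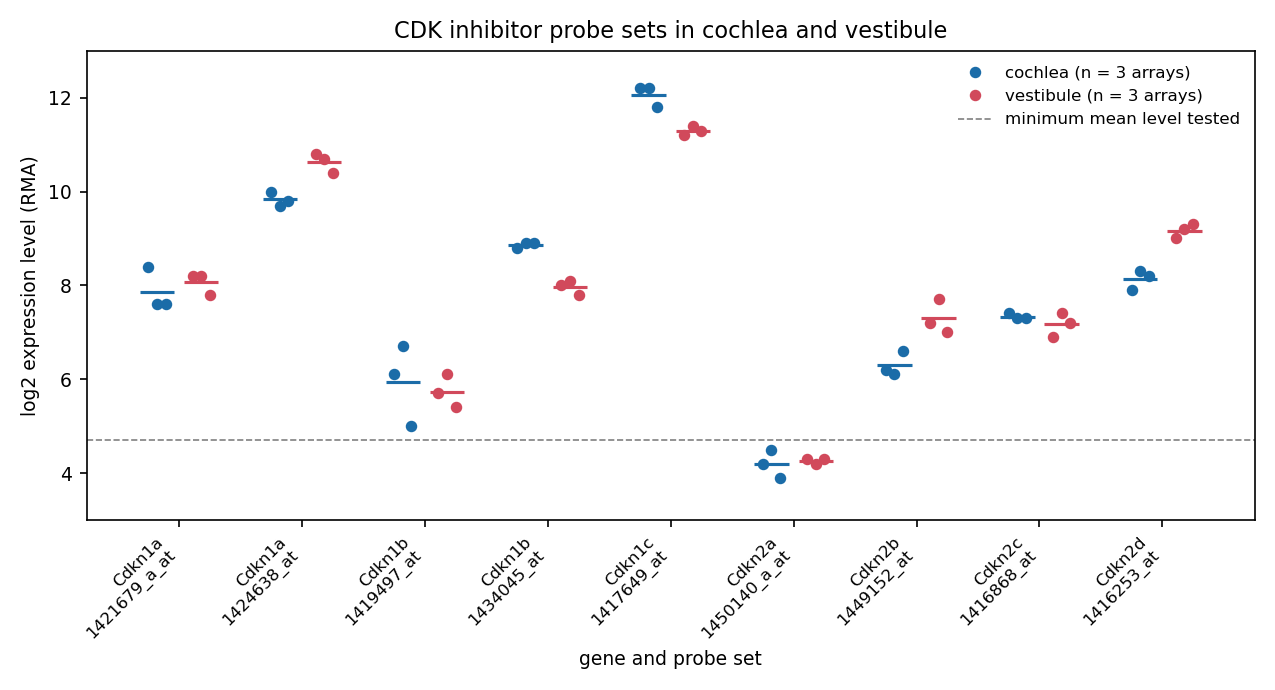
Log2 expression level (y axis) of each of the 9 probe sets of the CDK inhibitors, 1 point for each of 3 cochlear and 3 vestibular arrays, with bars at the group means and a dashed line at the minimum mean level tested, 4.7. The groups lie apart for Cdkn1a 1424638_at, Cdkn1b 1434045_at, Cdkn1c, Cdkn2b and Cdkn2d, and Cdkn2a lies under the line.

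The RefSeq sequence (GRCm38.p6) of the 120 bases before each annotated start is shown for Cdkn1a, Cdkn1b and Cdkn2b. These are 3 of the genes with a called probe set. The sequence of Cdkn2d is not shown. Its window lies within the annotated extent of the gene, as does the downstream window of Cdkn1a, which is shown beside the upstream one. Capitals mark a GC box, the letters GGGCGG on either strand, which Sp1 factors bind, or a pair of CATG with 6 bases between them, which lies at the core of many p53 response elements. The motifs were chosen after the sequences were seen. Entries were held for 7 of the 10 genes, in 11 windows, and not for Cdkn1c, Ccnd1 and Ccnd2. The sequences are Cdkn1a at its upstream start (chr17:29090859-29090978, plus strand), Cdkn1a at its downstream start (chr17:29093649-29093768, plus strand), Cdkn1b (chr6:134920281-134920400, plus strand) and Cdkn2b (chr4:89311033-89311152, minus strand).
Cdkn1a, upstream start: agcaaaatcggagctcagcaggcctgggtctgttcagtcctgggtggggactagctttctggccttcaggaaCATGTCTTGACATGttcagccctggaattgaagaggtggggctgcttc
Cdkn1a, downstream start: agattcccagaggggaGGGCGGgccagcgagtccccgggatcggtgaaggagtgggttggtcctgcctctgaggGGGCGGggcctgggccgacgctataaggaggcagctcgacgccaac
Cdkn1b: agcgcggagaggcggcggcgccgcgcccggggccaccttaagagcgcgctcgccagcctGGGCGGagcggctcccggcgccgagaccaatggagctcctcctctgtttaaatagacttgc
Cdkn2b: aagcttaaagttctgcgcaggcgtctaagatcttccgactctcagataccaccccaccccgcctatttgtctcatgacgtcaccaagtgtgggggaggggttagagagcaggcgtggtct

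The CATG pair began 48 bases before the upstream start of Cdkn1a, and it was the only member window with one. Over all 32851 windows of 250 bases before a start, 0.49% held such a pair. A GC box stood in 7 of the 11 member windows and in 32.7% of all. In those printed it began 104 and 46 bases before the downstream start of Cdkn1a and 61 bases before the start of Cdkn1b, and none lay in the window of Cdkn2b. In the window of Cdkn2d it began 118, 106 and 38 bases before the start. The TATA box letters TATAAA, also searched on both strands, stood in 0 of the 11 and in 12.4% of all. Only these exact letters were counted, so a near match such as tataag in the downstream window of Cdkn1a was not. A letter match of this kind is a description of the sequence. The downstream window lies within the transcript that begins upstream, and the probe sets of Cdkn1a were not assigned to either start.

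Ccnd2, the cyclin D2 gene, was read by 7 probe sets, of which 6 were tested and all 6 had a positive difference, from 0.30 to 0.53. Of these 3 were called. The brightest, 1434745_at, read 9.9, 10.1 and 10.0 in the cochlea and 10.4, 10.6 and 10.3 in the vestibule, with no overlap and a difference of 0.43 with a standard error of 0.12 (limma adjusted p = 0.0460), a fold of 1.35. The dimmest of the called probe sets, 1416123_at, read 5.0, 4.7 and 4.8 against 5.4, 5.4 and 5.1, a difference of 0.47 (limma adjusted p = 0.0488), and 1448229_s_at read 7.1, 7.0 and 6.7 against 7.6, 7.7 and 7.1, a difference of 0.53 (limma adjusted p = 0.0861). In the last, vestibule replicate 3 met the highest cochlear array. The 3 tested probe sets that were not called lay at 0.40 (1416122_at, limma adjusted p = 0.158), 0.37 (1455956_x_at, 0.114) and 0.30 (1430127_a_at, 0.236), and in the first pair the arrays did not overlap either. The seventh, 1416124_at, ran from 3.4 to 3.8 and was below the minimum.

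The calls of Ccnd2 were close to the thresholds. That of 1434745_at was lost without cochlea replicate 1 (0.38, limma adjusted p = 0.129) or vestibule replicate 1 (0.45, 0.133) or 2 (0.35, 0.155). That of 1416123_at was lost without cochlea replicate 2 (0.40, 0.112) or 3 (0.45, 0.129) or vestibule replicate 1 (0.42, 0.191) or 2 (0.42, 0.175), and that of 1448229_s_at without any single array except vestibule replicate 3 (0.42 to 0.62 in the other 5). Without vestibule replicate 1 or 2 no probe set of Ccnd2 was called, so that 3 member probe sets were called higher in the vestibule in place of 6. In a fit of the mean of its tested probe sets Ccnd2 differed by 0.42 (standard error 0.13, limma adjusted p = 0.0410).

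Ccnd1, the cyclin D1 gene, was not called at any of its 3 probe sets. 1448698_at read 9.0, 9.3 and 9.3 in the cochlea and 8.9, 9.4 and 9.4 in the vestibule, a difference of 0.03 (interval -0.35 to 0.41). 1417419_at read 7.1, 7.6 and 7.5 against 7.2, 7.5 and 7.0, and 1417420_at read 8.6, 8.2 and 8.1 against 8.1, 8.1 and 8.2, each with a difference of -0.17. The groups overlapped in all 3, and the intervals of the last pair, -0.57 to 0.23 and -0.50 to 0.17, leave out the size of the called Ccnd2 difference, 0.43, in the vestibular direction. That Ccnd2 difference had its own interval of 0.15 to 0.72, which overlaps both, and the genes were not tested against each other.

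Ccnd3, the cyclin D3 gene, had a bright probe set, 1415907_at, at 9.2, 9.4 and 8.9 in the cochlea and 9.2, 9.4 and 9.3 in the vestibule. Its difference was 0.13 (interval -0.20 to 0.47, limma adjusted p = 0.607). 1444323_at read 6.2 on all 3 cochlear arrays and 5.8, 5.9 and 6.1 in the vestibule, which put every cochlear array above every vestibular one at a difference of -0.27 (interval -0.53 to 0.00, limma adjusted p = 0.178). This was under the minimum fold and was not called. The third, 1438805_at, ran from 4.3 to 4.7 and was not tested.

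**Figure D3:**
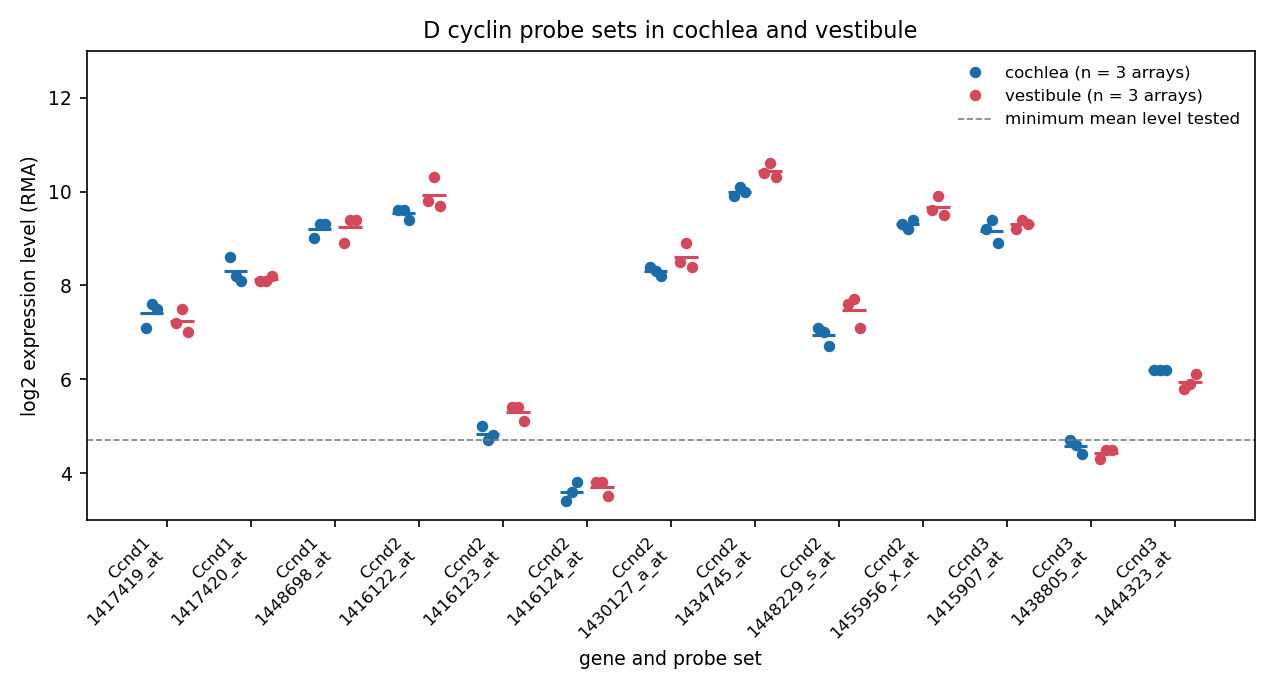
Log2 expression level (y axis) of each of the 13 probe sets of the D cyclins, 1 point for each of 3 cochlear and 3 vestibular arrays, with bars at the group means and a dashed line at the minimum mean level tested, 4.7. The vestibular mean lies above the cochlear mean in all 7 probe sets of Ccnd2, while those of Ccnd1 and Ccnd3 differ by 0.27 or less.

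**Figure D4:**
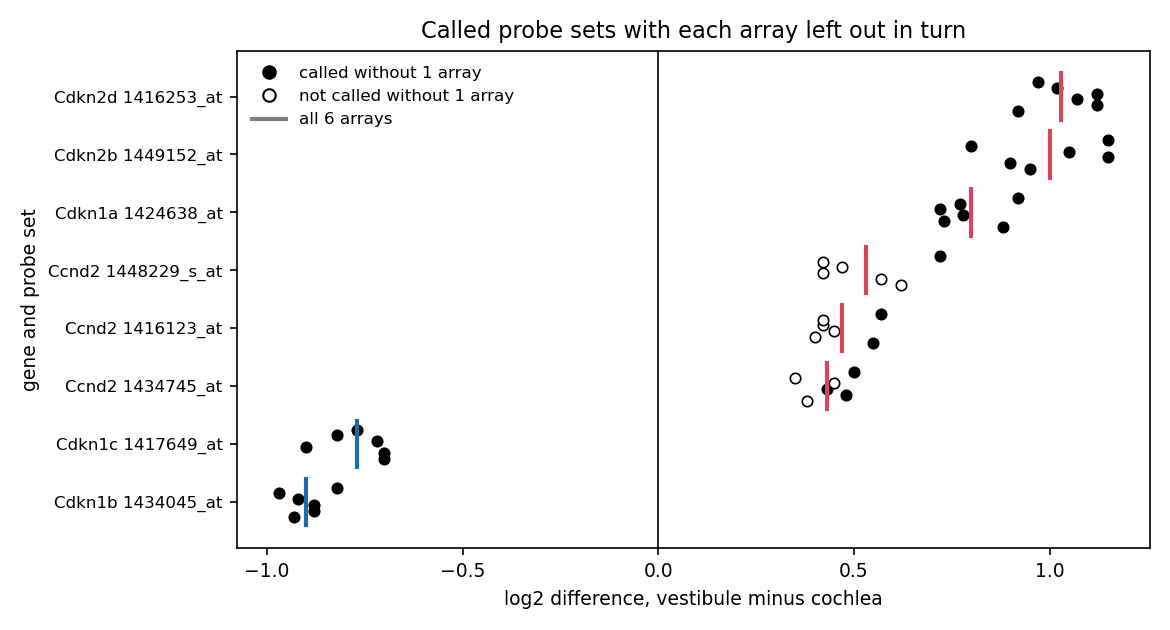
Log2 difference (x axis) of each of the 8 called probe sets with all 6 arrays (coloured bar) and with each array left out in turn (points, filled where called). The 5 inhibitor probe sets keep their calls throughout, while the open points all belong to Ccnd2.

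Most of the machinery that the inhibitors and D cyclins act on was not called. Of all genes tested, 15.1% were called towards the vestibule and 7.97% towards the cochlea by their brightest probe set, with a median difference of 0.03. Cdk6, a kinase partner of the D cyclins and a target of the Ink4 proteins, was higher in the vestibule. It read 8.3, 8.4 and 8.2 in the cochlea and 8.9, 8.9 and 9.0 in the vestibule. It differed by 0.63 (standard error 0.11, limma adjusted p = 0.00463), without overlap. Cdk4, the other partner, read 11.4, 11.6 and 10.1 in the cochlea and 11.3, 11.4 and 11.5 in the vestibule. Cochlea replicate 3 stood far below the other arrays, and the difference of 0.37 had an interval of -0.40 to 1.14 (limma adjusted p = 0.531). Cdk2, the partner of the E cyclins, differed by -0.23 (interval -0.53 to 0.07, limma adjusted p = 0.292). Of the 11 genes of G1 kinases and their partners only Cdk6 was called, none was called towards the cochlea (0 also at an unadjusted p under 0.05 in limma), and the list median was 0.00.

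The D cyclin kinases act on the retinoblastoma family, which then releases the E2F factors. The list of both had 2 of 17 genes called higher in the vestibule, a median of -0.03 and none higher in the cochlea (0 also at an unadjusted p under 0.05 in limma). They were Rbl2, the gene of the pocket protein p130, at 0.60 (limma adjusted p = 0.0967) and Lin37, a subunit of the DREAM complex that represses cell cycle genes, at 0.47 (limma adjusted p = 0.0965). No gene of the list was called higher in the vestibule without cochlea replicate 1 or 3 or without any one vestibular array, and 1 was called higher in the cochlea without cochlea replicate 2.

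Of the 16 genes for the breakdown of inhibitors and D cyclins, 1 was called. This was Usp2, a deubiquitinase known to stabilise cyclin D1, at 0.50 (limma adjusted p = 0.0183). Skp2, the F-box protein that marks p27 for destruction, read 7.6, 7.6 and 8.3 in the cochlea and 7.2, 7.5 and 7.5 in the vestibule. It differed by -0.43 (interval -0.89 to 0.02, limma adjusted p = 0.200), the same sign as Cdkn1b. Its cofactor Cks1b differed by -0.27 (interval -0.61 to 0.08, limma adjusted p = 0.296). None of the list was called higher in the cochlea (0 also at an unadjusted p under 0.05 in limma, but 1 called without cochlea replicate 3), and its median was -0.02.

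Among 12 tested regulators and targets of p53, the factor that induces Cdkn1a, 4 were called towards the vestibule and 1 towards the cochlea, with a median of 0.08. The p53 gene itself, Trp53, was not among them. Trp53 and Bax had no probe set annotated to them alone, and Pmaip1 and Fas were below the minimum level. Perp, which encodes a desmosomal membrane protein, had means of 8.83 in the cochlea and 10.13 in the vestibule, a difference of 1.3 (limma adjusted p = 1.8e-04), and the stress response gene Sesn1 stood at 0.73 (limma adjusted p = 0.00420), Trp53inp1 at 0.50 (0.0167) and Zmat3, the last of the 4, at 0.43 (0.0689). Btg2, an antiproliferative gene, stood at -0.57 (limma adjusted p = 0.0687), and its direction had no call without any single array other than cochlea replicate 3. Of 14 Polycomb genes, whose products silence the Cdkn2a locus in many cells, Eed was higher in the vestibule at 0.60 (limma adjusted p = 0.0215) and Cbx2 in the cochlea at -0.73 (limma adjusted p = 0.0216), and the median was 0.02. Without cochlea replicate 2 the vestibular count was 3, without vestibule replicate 3 it was 0, and without vestibule replicate 1 the cochlear count was 0.

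Mycn, a driver of proliferation that is known to raise D cyclins, had the largest difference in these lists. It read 9.0, 8.7 and 8.6 in the cochlea and 7.1, 7.4 and 6.7 in the vestibule, far apart in every array, with a difference of -1.70 with a standard error of 0.19 (limma adjusted p = 3.9e-04). Lef1, a transcription factor of Wnt signalling, was also higher in the cochlea, at -0.57 (limma adjusted p = 0.0263). Of the 18 tested genes of growth signals these were the 2 called, none was higher in the vestibule (2 at an unadjusted p under 0.05 in limma), and the median was -0.10. Without cochlea replicate 1 the counts were 1 in the cochlea and 2 in the vestibule, and without vestibule replicate 1 or 3 the cochlear count was 1.

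None of 20 tested genes of S phase and mitosis was called in limma in either direction (1 towards the vestibule and 0 towards the cochlea at an unadjusted p under 0.05), with differences from -0.30 to 0.57 and a median of 0.13. The proliferation marker Mki67, named after its value was seen, read 8.7, 8.8 and 9.1 in the cochlea and 8.8, 9.0 and 9.2 in the vestibule. Its difference was 0.13 (interval -0.21 to 0.48, limma adjusted p = 0.620). Without cochlea replicate 2 the list had 3 genes called higher in the vestibule, and without cochlea replicate 3 it had 1.

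**Figure D5:**
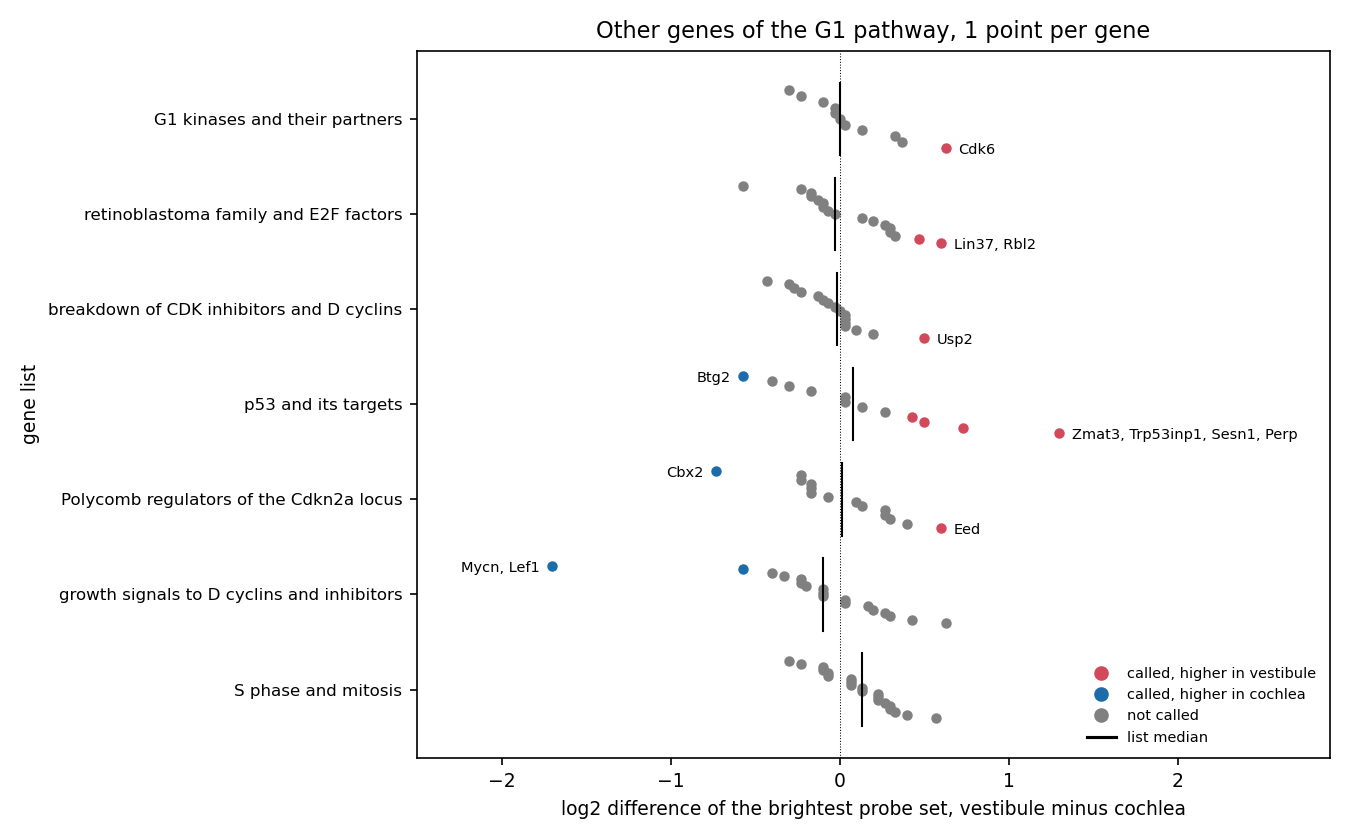
Log2 difference of the brightest probe set (vestibule minus cochlea, x axis) of each tested gene in 7 lists of the G1 pathway (y axis), coloured by call, with black bars at the list medians and called genes named from left to right. The medians lie between -0.10 and 0.13, Mycn stands at -1.70 and Perp at 1.3.

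The genes whose centred levels over the 6 arrays lay nearest to a member were found among 14152 other genes by the root mean square of the differences in log2 units. For Cdkn2d 1416253_at these were 9530077C05Rik (0.076), Rapgef5 (0.076) and Nuak2 (0.082). For Cdkn2b 1449152_at they were Laptm5, a lysosomal membrane gene of blood cells (0.10), Rtp4 (0.107) and Svopl (0.121), and for Cdkn1b 1434045_at Lad1, Prkca and Rttn, each at 0.069. The values carry 1 decimal and the points are 6 arrays of 2 tissues, so genes with a like tissue difference and like spread come out near. Thus 15 genes lay within 0.1 of Cdkn1b, against 4 for Cdkn2d.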

How the data were processed

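The authors amplified total RNA with a 2-cycle kit, hybridised it to Affymetrix mouse genome arrays and deposited log2 values computed by RMA with quantile normalization. These carry 1 decimal, and for RMA and MAS5 no version is given in the sources used here. Which pool each array read is not stated, so p-values measure the spread between arrays, which may be partly technical. After 64 control probe sets were left out, 29551 probe sets passed a mean log2 level of 4.7, in place of the study's Present calls, which need probe-level data not used here. Vestibule minus cochlea was fitted on all of them with limma 3.58.1 (lmFit, eBayes, two-sided) in R 4.3.3 (tables read with the data.table package, version 1.17.8), adjusted by Benjamini-Hochberg, with 95% intervals. The number of arrays, 3 per tissue, limits the precision. Gene names came from GEO's platform annotation, which gave 1 gene for 34945 probe sets and several for 932. Figures used matplotlib 3.10.9 with numpy 2.4.6 and pandas 2.3.3 in Python 3.11.15.

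The members and all lists, 7 of pathway genes and 10 of markers, were chosen with earlier results of these data known. List genes are read by their brightest probe set. Named are all members, up to 4 called genes of a list with the largest differences, the kinases and the Skp2 pair, the brightest markers and the nearest genes by level. Zmat3, Mki67, Fgfr3, Pou4f3 and Gfi1 were picked after their values were seen. The promoter strand and coordinates are those of RefSeq. Alternatives were no filter, the 20000 brightest probe sets, arrays centred on their medians, quantile normalization run again, a variance trend, weights for arrays, a block for the replicate number, an adjusted p under 0.05, no minimum fold, random noise of at most 0.05 on each value, gene means, and each array left out. Same-numbered arrays were checked for pairing by the correlation of their deviations.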

Additional observations from a re-analysis of the deposited data

How the results depend on the processing

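The calls of Cdkn1a 1424638_at, Cdkn1b 1434045_at, Cdkn1c and Cdkn2d held under all 16 alternatives run on each, and that of Cdkn2b under 15 of 16. In such counts, dropping the minimum fold could not end a call, and an adjusted p under 0.05 reread the same fit. With the replicate number as a block Cdkn2b kept its difference of 1.00 but had an adjusted p of 0.113. The deviations of same-numbered arrays correlated at 0.22, 0.15 and 0.00, and those of differently numbered arrays at -0.22 to 0.03. With 3 arrays per tissue this cannot decide whether the numbers pair the arrays. The block left 5 member probe sets (3 genes) higher in the vestibule and 2 (2 genes) in the cochlea. It gave 0 retinoblastoma and E2F genes higher in the vestibule, 0 p53 genes higher in the cochlea, 1 growth signal gene each way and 1 S phase gene higher in the vestibule, where all arrays without a block gave 2, 1, 0 (vestibule), 2 (cochlea) and 0. Of the Ccnd2 calls 11 of 15, 12 of 16 and 7 of 16 alternatives kept those of 1416123_at, 1434745_at and 1448229_s_at.

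With each array left out, 3 to 6 member probe sets were called towards the vestibule and 2 towards the cochlea. Genes higher in the vestibule numbered 0 to 3 (retinoblastoma and E2F), 0 to 3 (Polycomb), 0 to 2 (growth signals) and 0 to 3 (S phase), and genes higher in the cochlea 0 to 1 (retinoblastoma and E2F, breakdown, p53, Polycomb) and 1 to 3 (growth signals). The 2 retinoblastoma and E2F calls fell to 0 with no filter, with median centring, after a second quantile normalization and at an adjusted p under 0.05, and to 1 with a trend or an added random value. Array weights gave 1 gene of that list in the cochlea, 2 Polycomb genes and 3 S phase genes in the vestibule. A second quantile normalization gave 4 growth signal genes in the cochlea, and the random value 1 in the vestibule. An adjusted p under 0.05 gave 0 p53 genes in the cochlea. Gene means gave 2 p53 genes in the cochlea, and 2 Polycomb, 1 growth signal and 1 S phase gene in the vestibule. The causes were not tested.

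Signs turned only for probe sets without a call. Ccnd1 1448698_at stood at -0.08 after a second quantile normalization, -0.07 without cochlea replicate 1 and -0.05 without vestibule replicate 2 or 3, with 0.20 without vestibule replicate 1 the highest. Cdkn1a 1421679_a_at stood at -0.05 with array weights, and Cdkn1b 1419497_at ranged from -0.67 without cochlea replicate 3 to 0.18 without cochlea replicate 2. Signal limits Cdkn2a, Ccnd2 1416124_at and Ccnd3 1438805_at, whose levels were below the minimum.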
